A study of Mus musculus with 20 samples.

Results

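The SoxB, SoxC and SoxD genes are 9 members of the Sox family of transcription factor genes, chosen here by name and not by any measured value. They were Sox1, Sox2, Sox3 and Sox21 of the SoxB group, Sox4 and Sox11 of the SoxC group, and Sox5, Sox6 and Sox13 of the SoxD group, out of 21911 protein-coding genes in GENCODE M21. For each gene the data comprised every ATAC-seq, histone mark and Tcf4 peak within the gene body and 5 kb on either side (the gene window, build mm10), and every consensus ATAC region to which the authors had attached its symbol, 37 of 32120 regions in all. Of these 37 regions, 15 belonged to Sox5, 10 to Sox6, 3 each to Sox4, Sox11 and Sox13, 1 each to Sox2, Sox3 and Sox21, and 0 to Sox1.

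The cells came from the neocortex of mice at postnatal day 7 or 8 and were sorted as GFP-positive progeny of Nkx2.1-expressing ventral progenitors. WT animals carried Nkx2.1-Cre and the Ai3 reporter, which turns on EYFP in cells with a history of Cre activity. Tcf4 cKO animals carried both of these and Tcf4 f/f, the homozygous conditional allele of the bHLH transcription factor Tcf4, so that Cre and reporter were common to both groups and the deletion was limited to the Nkx2.1 lineage. Tcf4-tag animals carried a Cre-dependent tag of 3 HA and 3 Flag copies on Tcf4, and anti-Flag Cut&Tag in them located Tcf4 itself. ATAC-seq, which measures open chromatin, and Cut&Tag for H3K4me1, H3K27ac and H3K27me3 had 2 libraries of each genotype, and Tcf4 had 2 libraries. H3K4me1 marks enhancers, H3K27ac active enhancers and promoters, and H3K27me3 chromatin held by Polycomb complexes. The labels did not say whether the libraries of a group came from separate animals, so the spread between 2 libraries may be technical.

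SOX proteins bend DNA through an HMG box that reads a short A/T-rich core, and they usually act with a partner factor, often a POU protein. Sox1, Sox2 and Sox3 (SoxB1) keep neural progenitors undifferentiated and Sox21 (SoxB2) opposes them, while Sox4 and Sox11 act in neuronal precursors. Sox5, Sox6 and Sox13 have no activation domain of their own and work by modulating other factors. In the oligodendrocyte lineage Sox5 and Sox6 delay maturation of precursors, and Sox6 also directs the placement of interneurons from the medial ganglionic eminence.

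Peak numbers ran from 15085 to 72790 per library. In ATAC-seq they were 54162 and 72308 in WT and 61652 and 58584 in Tcf4 cKO. In H3K4me1 both Tcf4 cKO libraries, with 72790 and 65049 peaks, had more than both WT libraries, with 51510 and 59526. The labels define the cells by lineage, which includes both glia and interneurons. Of 6 markers of oligodendrocyte precursor cells, 5 or 6 had an ATAC peak at the promoter in every library, although Olig2, Sox10 and Gpr17 had no promoter peak of H3K27ac in any. Of 6 interneuron markers, 4 to 6 had an ATAC peak. Among the astrocyte markers, Aqp4 and Gfap had none in any library, and 3 or 4 of 6 had one. H3K27ac had promoter peaks at 1 or 2 of the 6 oligodendrocyte precursor markers. For interneurons these were 2 to 4 of 6, and for astrocytes 3 of 6 in every library. Markers of other cell types also had promoter peaks. In ATAC these were 2 to 4 of 5 for microglia, 2 to 4 of 5 for projection neurons and 3 of 5 for endothelial cells, and in H3K27ac 0 of 5 for microglia, 0 or 1 of 5 for projection neurons and 1 or 2 of 5 for endothelial cells. Their part in the results was not tested. Each profile is therefore an average over a mixture, in which fewer cells of a type and less open chromatin per cell cannot be told apart. Tcf4 itself had a promoter peak of ATAC, H3K4me1 and H3K27ac in all 4 libraries of each assay, and none of these peaks measures the deletion. Peak height is given throughout as the MACS2 fold enrichment over local background.

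The promoters of the 9 genes fell into different chromatin states, and which genes had a peak was nearly the same in both genotypes (plot of promoter peak heights). A promoter is the 1 kb on either side of each start of a protein-coding transcript, and a state counts when both libraries of a genotype have a peak. In WT, 8 of 9 promoters had an ATAC peak, all but that of Sox1, against 65.8% of protein-coding genes, and in Tcf4 cKO all 9 had one, against 65.0%. H3K27ac was present at Sox2, Sox21, Sox4, Sox11, Sox5 and Sox6 in both genotypes, with backgrounds of 53.0% in WT and 50% in Tcf4 cKO. At Sox5 the 2 libraries of a genotype had separate H3K27ac peaks. Replicate 1 peaked at chr6:144208704-144209501 (2.79 in WT and 3.09 in Tcf4 cKO) and replicate 2 at chr6:144210229-144210892 (2.96 and 3.01). H3K27me3 was present at Sox1, Sox21 and Sox6 in both genotypes, with backgrounds of 16.4% and 16.6%. H3K4me1 was present at Sox2, Sox5 and Sox6 in both, with backgrounds of 30.4% and 45.8%. Sox21 and Sox6 thus held both H3K27ac and H3K27me3 in WT, a combination of 9.78% of genes, Sox1 held H3K27me3 without H3K27ac (6.6% of genes), and Sox3 and Sox13 held neither (40.4%). Whether both marks lay on the same alleles or in different cells of the mixture cannot be told apart. With peaks limited to a -log10 q of at least 5, H3K27me3 remained at 0 of the 9 promoters in WT and H3K27ac at 1. Tcf4 had a peak in both libraries at the promoters of Sox2, Sox21, Sox11 and Sox6, against 38.2% of genes. The 5' end of the Sox5 gene was not among the protein-coding starts and is left out of these states. There, at chr6:144781194-144782878, Tcf4 peaked at 4.3 and 4.83. H3K27me3 there was 2.98 in WT replicate 1, absent in WT replicate 2, and 3.07 in both Tcf4 cKO libraries.

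**Figure D1:**
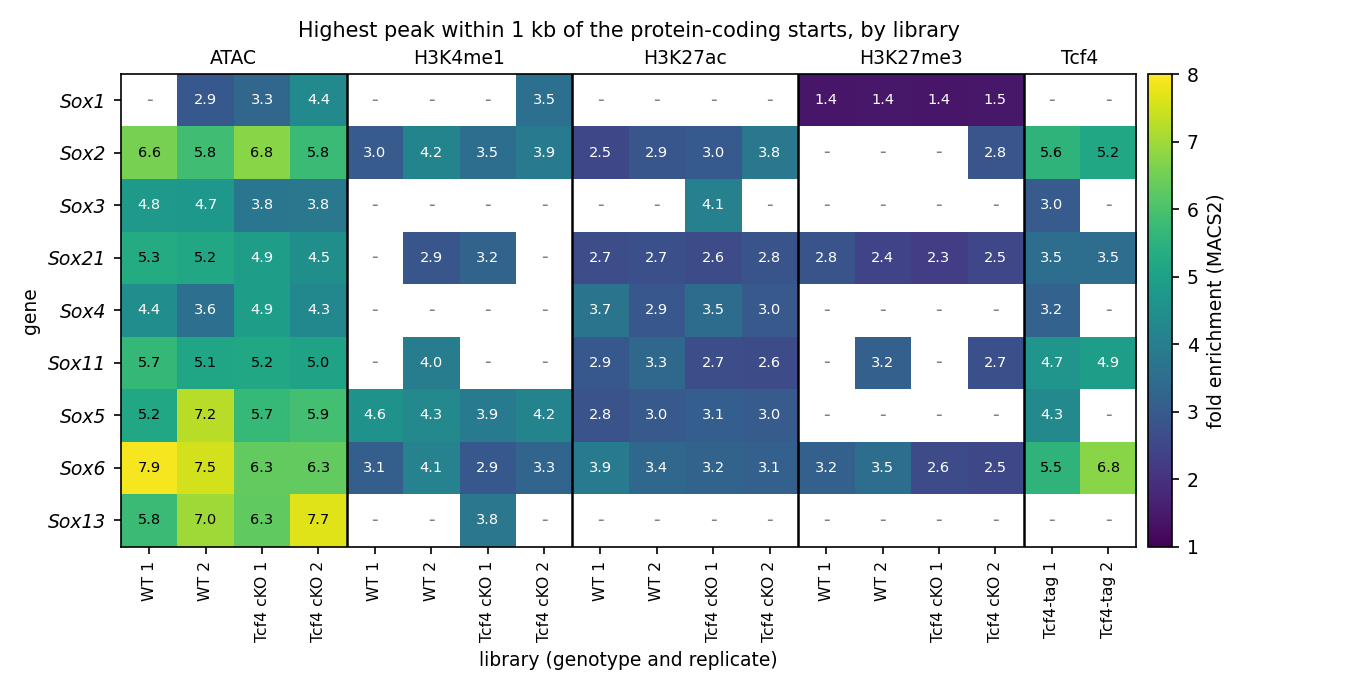
Highest MACS2 fold enrichment of a peak within 1 kb of the protein-coding start sites of each Sox gene (rows) in each library (columns, grouped by assay), with a dash where the library had no peak. Sox1 had H3K27me3 at 1.43 to 1.46 in all 4 libraries and no H3K27ac, whereas Sox6 had both marks in all 4. The 5' end of the Sox5 gene is not among these starts.

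Sox1, a SoxB1 gene of neural progenitors, had broad H3K27me3 and little open chromatin. Its 14.8 kb window (chr8, gene at 12395295-12400126) met 3 H3K27me3 domains that were called in all 4 libraries. The domain across the start, chr8:12395175-12397670, had mean fold enrichments of 1.43 and 1.45 in WT and 1.43 and 1.46 in Tcf4 cKO. The upstream domain of 11260 bp, chr8:12381056-12392315, had 1.48 and 1.40 in WT and 1.62 and 1.53 in Tcf4 cKO. The downstream domain, chr8:12400813-12404350, had 1.76 and 1.78 in WT and 1.82 and 1.75 in Tcf4 cKO. None of the 3 passed the test, with adjusted p of 0.992, 0.338 and 0.956 in limma. Sox1 was the only member with no H3K27ac peak in its window in any library. ATAC peaks covered 639 and 912 bp of the window in WT and 1886 and 1157 bp in Tcf4 cKO. Both Tcf4 cKO values lay above both WT values, as in 7.07% of all genes. Peak height at the promoter was low, with no peak in WT replicate 1, 2.93 in WT replicate 2, and 3.31 and 4.36 in Tcf4 cKO. Tcf4 had 1 peak near Sox1, in 1 of its 2 libraries.

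Sox2, the SoxB1 gene most widely used to define neural stem cells, had an open promoter with Tcf4 and overlapping ATAC values in the 2 genotypes. Its single consensus region, chr3:34649116-34650536, covers the start site. The authors' mean log2 normalized reads there were 8.53 in WT and 8.61 in Tcf4 cKO. ATAC peak height was 6.56 and 5.85 in WT and 6.76 and 5.78 in Tcf4 cKO, a log2 difference of 0.10 ± 0.19 (SE, adjusted p = 0.957 in limma). The 2 genotypes overlapped in ATAC and in H3K4me1, which was 3.02 and 4.17 in WT and 3.53 and 3.89 in Tcf4 cKO. The highest H3K27ac peak at the promoter was 2.53 and 2.87 in WT and 2.98 and 3.79 in Tcf4 cKO, without overlap, but these were not the same peak. At chr3:34648911-34649745 H3K27ac was 2.5 in WT replicate 1, absent in WT replicate 2, and 2.98 and 3.79 in Tcf4 cKO, whereas the 2 WT values came from separate peaks further downstream with none in Tcf4 cKO. No test was made, since no H3K27ac region there had a peak in all 4 libraries. H3K27me3 had a peak in the window in only 1 library of each genotype, of 474 bp in WT and 452 bp in Tcf4 cKO. Among the SoxB and SoxC genes, Sox2 had the highest reproducible Tcf4 peak, at 5.56 and 5.19, centred 783 bp upstream of the annotated start in the first library. The bases within 75 bp of that summit are printed because this is the strongest Tcf4 site of the SoxB genes, with capitals marking any match to the E-box CANNTG, in which N is any base, or to the SOX cores ACAAAG and ACAATG, on either strand (chr3:34649547-34649697, plus strand, GRCm38). It holds none of the 3 cores, so no letter is in capitals.
Sox2 Tcf4 summit: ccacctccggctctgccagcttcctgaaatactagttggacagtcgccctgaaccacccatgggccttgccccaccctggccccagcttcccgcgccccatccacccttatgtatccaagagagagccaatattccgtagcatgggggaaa

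Sox3, also a SoxB1 gene, lies on the X chromosome (chrX:60891366-60893430). ATAC peak height over its promoter region was 4.79 and 4.72 in WT and 3.76 and 3.79 in Tcf4 cKO. The libraries of the 2 genotypes did not overlap, but the log2 difference of -0.25 ± 0.17 (SE) did not pass (adjusted p = 0.713 in limma), and the authors' means were close, at 8.76 and 8.63. A small H3K27me3 domain 3.8 kb downstream of the start, chrX:60889115-60890221, had peaks of 2.60 and 2.52 in Tcf4 cKO and none in WT. It was the only H3K27me3 region of 14 near the 9 genes present in both libraries of one genotype and neither of the other, against 5.36% of all H3K27me3 regions in that direction and 4.05% in the opposite one. H3K27ac had a peak in 1 library only, Tcf4 cKO replicate 1 at 4.06, and Tcf4 in 1 library only, at 3.02.

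Sox21, the SoxB2 gene, had a promoter with open chromatin, H3K27ac, H3K27me3 and Tcf4 in every library of each. ATAC peak height over chr14:118235925-118237611 was 5.32 and 5.21 in WT and 4.90 and 4.49 in Tcf4 cKO, and the authors' means were 9.20 and 8.92. The log2 difference in peak height was -0.08 ± 0.18 (SE, adjusted p = 0.961 in limma). H3K27ac was 2.66 and 2.72 in WT and 2.63 and 2.82 in Tcf4 cKO. H3K27me3 was 2.81 and 2.4 in WT and 2.27 and 2.5 in Tcf4 cKO (log2 difference -0.13 ± 0.09, adjusted p = 0.521 in limma). Tcf4 peaked at 3.54 and 3.51 in the promoter, and at 2.80 and 3.52 in a second site 6.7 kb downstream, in a consensus region that carries the symbol Gm4675. ATAC peaks covered 2863 and 3341 bp of the window in WT against 2099 and 2376 bp in Tcf4 cKO. Sox21 and Sox4 were the 2 members whose ATAC coverage lay below WT in both Tcf4 cKO libraries, against 19.7% of all genes.

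Sox4, a SoxC gene expressed in immature neurons and glial precursors, had no H3K27me3 domain at its start and an active element upstream of it. Its 3 consensus regions differed by -0.26 at the promoter, -0.15 at the end of the gene and -0.15 upstream in the authors' log2 means, beside a median of -0.10 over all regions. The upstream element, chr13:28957935-28960043, had ATAC peaks of 4.86 and 5.98 in WT and 4.95 and 5.40 in Tcf4 cKO (log2 difference 0.02 ± 0.17, adjusted p = 0.992 in limma). H3K27ac there was 4.83 and 3.82 in WT and 5.05 and 5.30 in Tcf4 cKO (0.29 ± 0.17, adjusted p = 0.795 in limma), higher than at the promoter, where it was 3.69 and 2.90 in WT and 3.48 and 2.96 in Tcf4 cKO. Tcf4 peaked at 3.73 and 3.75 on this element and was not reproducible at the promoter. The Tcf4 region merged from both libraries covered 91.2% of the element. H3K27me3 had a peak on this element in WT replicate 1 alone, at 3.01.

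Sox11, the other SoxC gene, had the largest positive difference of the 37 regions, in an intergenic element 48.1 kb downstream of its start (chr12:27294259-27294772). The authors' means there were 4.43 in WT and 5.17 in Tcf4 cKO, a difference of 0.74. Individual libraries overlapped, with no ATAC peak in WT replicate 1, 7.26 in WT replicate 2, and 7.77 and 6.50 in Tcf4 cKO. H3K4me1 had a peak there in all 4 libraries, between 3.87 and 4.36, and Tcf4 in neither. At the promoter ATAC peaks were 5.67 and 5.11 in WT and 5.16 and 5.02 in Tcf4 cKO, and Tcf4 peaked at 4.66 and 4.89. H3K27ac at the promoter was 2.94 and 3.34 in WT and 2.66 and 2.62 in Tcf4 cKO. The genotypes did not overlap, but the log2 difference of -0.22 ± 0.17 (SE) did not pass (adjusted p = 0.875 in limma). Coverage of the window by H3K27ac was likewise lower, with 542 and 674 bp in WT and 419 and 305 bp in Tcf4 cKO, which made Sox11 the only member below WT in both libraries, against 14.7% of genes. No member was above, against 7.55%.

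Sox6, the SoxD gene of interneuron placement and oligodendrocyte precursors, held 4 of the 5 symbol-labelled regions of the 9 genes whose authors' mean was lower by at least 0.5. Of its 10 consensus regions, 8 had a lower mean in Tcf4 cKO, against 63.5% of all regions, with a median difference of -0.42, and 4 were lower by at least 0.5. Over all 9 genes 5 of 37 regions were lower by at least 0.5 and 3 were higher, against 12.6% and 8.38% of all regions. The lowest was an intronic element, chr7:115729811-115730703, 308.5 kb into the gene. The authors' means were 7 in WT and 6.11 in Tcf4 cKO, a difference of -0.89. ATAC peak height was 10.6 and 10.2 in WT and 7.91 and 6.20 in Tcf4 cKO, without overlap (log2 difference -0.49 ± 0.19, SE, adjusted p = 0.306 in limma). H3K27ac at this element did not follow, with 4.42 and 4.30 in WT and 3.94 and 5.01 in Tcf4 cKO (0.06 ± 0.17, adjusted p = 0.974 in limma).

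The second was an internal promoter of Sox6, chr7:115824400-115825777, at the start of a shorter protein-coding transcript. Its means were 8.46 and 7.81, a difference of -0.64, and ATAC peaks were 7.91 and 7.53 in WT and 6.32 and 6.32 in Tcf4 cKO (log2 difference -0.21 ± 0.18, adjusted p = 0.807 in limma). At chr7:115624546-115625729 the difference was -0.56, with peaks of 7.68 and 7.25 in WT and 6.25 and 6.20 in Tcf4 cKO. At chr7:115666715-115667603 it was -0.54, but the peak heights overlapped, at 7.97 and 6.84 in WT and 6.70 and 7.5 in Tcf4 cKO. At the 5' end of the gene the H3K27me3 domain was 3.16 and 2.81 in WT and 2.59 and 2.51 in Tcf4 cKO (log2 difference -0.23 ± 0.07, adjusted p = 0.207 in limma), and H3K4me1 was 2.73 and 3.95 against 2.33 and 2.41 (-0.45 ± 0.19, adjusted p = 0.610 in limma), both without overlap and neither past the threshold. Accessibility of this 5' end differed by -0.38 in the means and had ATAC peaks of 6.34 and 5.64 in WT and 6 in each Tcf4 cKO library.

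The 4 Sox6 regions lower by at least 0.5 all carried Tcf4, which was measured in other animals. Tcf4 regions merged from both libraries and found in each covered at least 30% of 8 of the 10 Sox6 regions. The same held for 16 of 37 regions of all 9 genes and 36.3% of all consensus regions. The 8 regions with Tcf4 had differences between -0.89 and -0.17, with a median of -0.50, and the 2 others were at 0.14 and 0.28. These 2 had a Tcf4 peak in the first library alone, at 3.76 and 4.04, so the split rests on requiring both libraries. The second library had fewer Tcf4 peaks in all, 16834 against 28606. A further region of the Sox6 window, which has no symbol in the table and no reproducible Tcf4, goes against this split, with a difference of -1.18 (chr7:115473659-115474540). Outside promoters, 33.2% of the consensus regions with Tcf4 in the whole table were lower by at least 0.5, and 15.7% of those without, so that this pattern was shared with many other genes. The Sox6 internal promoter had Tcf4 peaks of 5.43 and 6.76, and the lowest element had 6.49 and 6.52, the highest Tcf4 peak of the gene.

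The bases within 75 bp of the Tcf4 summit of the first library are printed for the 4 Sox6 regions lower by at least 0.5, on the plus strand of GRCm38, with the same cores in capitals. They are, in order, chr7:115730262-115730412, chr7:115825175-115825325, chr7:115625014-115625164 and chr7:115667048-115667198, none of which overlaps an exon.
Sox6 lowest intronic element: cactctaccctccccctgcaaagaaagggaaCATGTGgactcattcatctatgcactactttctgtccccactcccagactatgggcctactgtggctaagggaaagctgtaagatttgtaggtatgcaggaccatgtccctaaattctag
Sox6 internal promoter: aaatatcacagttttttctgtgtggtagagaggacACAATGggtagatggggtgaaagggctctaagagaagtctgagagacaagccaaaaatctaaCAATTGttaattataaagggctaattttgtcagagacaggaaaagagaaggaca
Sox6 intron, at 413.7 kb: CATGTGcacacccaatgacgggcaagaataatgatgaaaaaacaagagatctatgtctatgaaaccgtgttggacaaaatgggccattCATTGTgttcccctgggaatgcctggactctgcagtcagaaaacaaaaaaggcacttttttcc
Sox6 intron, at 371.7 kb: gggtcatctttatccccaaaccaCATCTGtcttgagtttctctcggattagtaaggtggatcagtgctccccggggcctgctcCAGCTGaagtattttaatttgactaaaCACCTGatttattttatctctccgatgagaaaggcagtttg
Each window holds an E-box, and the last holds 3, of which 1 is CAGCTG. The internal promoter and the intronic window listed after it also hold an ACAATG core, on the minus strand in the latter. Of all Tcf4 summits of the first library, 49.2% hold CANNTG in such a window, 14.2% CAGCTG and 5.91% ACAATG. At the lowest intronic element and the intron at 413.7 kb, the summit of the second library lay outside the printed bases (chr7:115730523 and chr7:115625307).

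**Figure D2:**
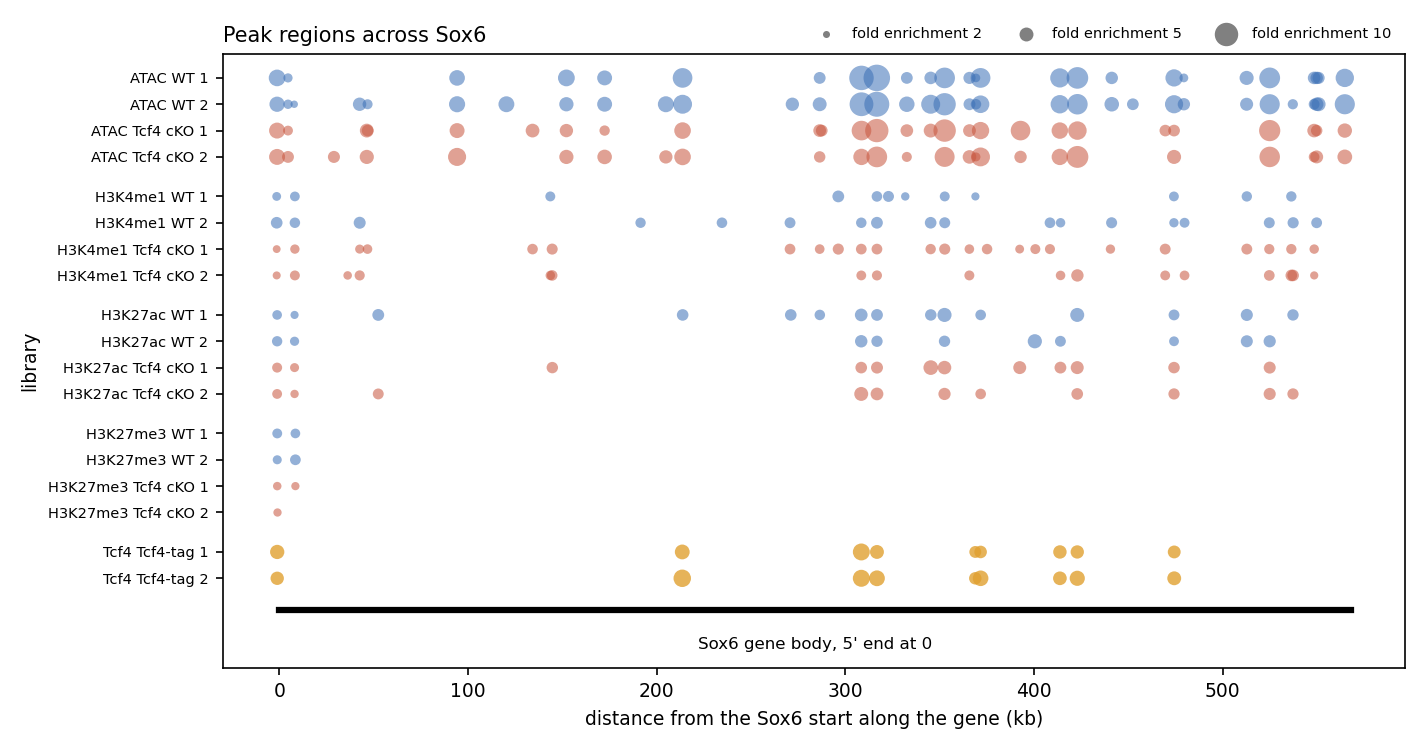
Peak regions across Sox6 by distance in kb from the 5' end of the gene (horizontal axis) in each library (rows), where the area of a circle grows with the MACS2 fold enrichment. WT is blue, Tcf4 cKO red and reproducible Tcf4 regions amber, and the 9 Tcf4 regions include the 5' end and the element 308.5 kb into the gene, whose ATAC circles are larger in WT.

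Further elements within Sox6 had peaks in one genotype alone. At chr7:115525941-115526328, 512.7 kb into the gene, ATAC peaks were 5.08 and 4.58 in WT and absent in Tcf4 cKO. H3K27ac at the same place, chr7:115525761-115526308, was 4.14 and 4.11 in WT and absent in Tcf4 cKO. ATAC peaks were also confined to WT at chr7:115487837-115488135 (4.15 and 5.02), chr7:115559054-115559724 (2.72 and 4.26) and chr7:115597408-115597837 (4.31 and 5.30). They were confined to Tcf4 cKO at chr7:115645444-115646473 (7.89 and 4.29) and chr7:115992319-115992592 (4.96 and 5.12). The bases within 75 bp of the WT replicate 1 ATAC summit of the first element (chr7:115526020-115526170, plus strand, GRCm38), shown because open chromatin and H3K27ac differed together there, hold 1 E-box and 1 ACAAAG core on the minus strand.
Sox6 element of WT: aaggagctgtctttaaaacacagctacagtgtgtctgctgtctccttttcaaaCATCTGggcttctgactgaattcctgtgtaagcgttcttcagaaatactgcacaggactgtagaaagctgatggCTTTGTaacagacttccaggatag
Around all 54159 ATAC summits of WT replicate 1, 52.8% of such windows hold CANNTG and 14.8% hold ACAAAG.

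One more consensus region of the Sox6 window had no symbol in the authors' table. It lies 564.7 kb into the gene, near its 3' end (chr7:115473659-115474540), with means of 7.22 and 6.04, a difference of -1.18. Its ATAC peaks were 7.21 and 8.16 in WT and 5.21 and 5.40 in Tcf4 cKO (log2 difference -0.45 ± 0.17, adjusted p = 0.309 in limma). No reproducible Tcf4 region overlapped it.

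Sox5, the second SoxD gene, spans 954.0 kb of chr6 and had the most regions, with lower and higher ones side by side. Among its 15 consensus regions the median difference was -0.15, with 1 lower and 2 higher by at least 0.5. The lower one, chr6:144195802-144196595, had means of 7.11 and 6.46 and ATAC peaks of 7.45 and 7.29 in WT and 6.25 and 5.75 in Tcf4 cKO. The higher ones were chr6:143845566-143846195, with means of 6.54 and 7.12, and chr6:144203963-144204566, with means of 6.13 and 6.65. The latter is a promoter in the authors' annotation, which is not the rule used above for promoter states. At a region with nearly equal means of 6.45 and 6.38, chr6:144166102-144166884, ATAC peaks were 5.2 and 5.44 in WT and 7.44 and 7.11 in Tcf4 cKO (log2 difference 0.54 ± 0.17, adjusted p = 0.201 in limma), so means and peak heights did not point the same way. In both higher regions the peak heights overlapped, at 6.39 and 8.15 in WT against 10.1 and 7.43 in Tcf4 cKO for the first and 5.02 and 5.53 against 5.47 and 5.53 for the second. At the start of most protein-coding Sox5 transcripts, chr6:144208895-144210946, the means were 8.08 and 8.04.

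The largest difference near any of the 9 genes lay in a Sox5 element without a symbol, chr6:144351892-144352736, 429.7 kb into the gene. The authors' means were 7.24 in WT and 5.75 in Tcf4 cKO, a difference of -1.48. ATAC peaks were 8.81 and 11.7 in WT and 6.25 and 5.75 in Tcf4 cKO, and the log2 difference of -0.67 ± 0.18 (SE) had the lowest adjusted p of the 57 ATAC regions tested near these genes, 0.116 in limma, which misses the threshold. H3K27ac was present there in both WT libraries, at 4.63 and 4.18, and in neither Tcf4 cKO library. H3K4me1 was present in both Tcf4 cKO libraries, at 4.66 and 4.34, and in neither WT library. WT replicate 2 did have an H3K4me1 peak of 3.39 beside it, at chr6:144351394-144351826, so the absence of H3K4me1 from WT depends on where peaks were bounded. Tcf4 had no reproducible peak in this element. Its central bases, within 75 bp of the summit of WT replicate 1, are printed because ATAC and H3K27ac both lay lower in Tcf4 cKO here (chr6:144352228-144352378, plus strand, GRCm38), with 1 ACAAAG core in capitals and no E-box.
Sox5 element at 429.7 kb: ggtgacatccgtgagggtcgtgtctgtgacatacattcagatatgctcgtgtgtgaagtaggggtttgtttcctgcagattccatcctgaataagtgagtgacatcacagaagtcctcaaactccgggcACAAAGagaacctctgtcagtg

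In all, 7 consensus regions without a symbol lay in the windows of Sox5 (6) and Sox6 (1), and 4 of them were lower by at least 0.5 and 0 higher, against 19.8% and 13.3% of all consensus regions outside promoters. Only 1 of the 7 overlapped a reproducible Tcf4 region, and it was not among these 4. Beside those already given they were chr6:144098076-144098640, with a difference of -0.84 and ATAC peaks of 12 and 10.8 in WT and 6.90 and 7.63 in Tcf4 cKO (adjusted p = 0.201 in limma), and chr6:144523167-144523946, with a difference of -1.11 and peaks of 6.90 and 8.33 in WT, 4.2 in Tcf4 cKO replicate 1 and none in replicate 2.

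H3K27ac was also confined to WT at a second Sox5 element, chr6:144106641-144107755, with peaks of 4.04 and 4.25. The consensus region at this site had means of 6.64 and 6.45, a difference of -0.19. The bases within 75 bp of its ATAC summit in WT replicate 1 (chr6:144106989-144107139, plus strand, GRCm38) hold 1 E-box of the form CAGCTG and 2 ACAAAG cores, 1 on each strand, which is why it is shown beside the first element.
Sox5 second element: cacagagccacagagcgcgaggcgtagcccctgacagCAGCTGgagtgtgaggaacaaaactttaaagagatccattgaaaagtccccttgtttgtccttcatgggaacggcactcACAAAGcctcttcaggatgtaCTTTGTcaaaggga
In the windows of the 9 genes, 3 of 56 H3K27ac regions were confined to WT and 0 to Tcf4 cKO, against 4.23% and 2.53% of all H3K27ac regions. All 3 are the Sox5 and Sox6 elements described above, and a Sox13 region outside its window is given below.

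H3K4me1 at chr6:144659346-144660008 was 5.09 and 5.51 in WT and 3.57 and 3.42 in Tcf4 cKO (log2 difference -0.58 ± 0.19, adjusted p = 0.477 in limma).

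Tcf4 on Sox5 was strongest at an intronic element 724.8 kb into the gene, chr6:144056489-144057453, with peaks of 8.48 and 7.48, the highest Tcf4 peak near any of the 9 genes. Accessibility of the consensus region there was 9.19 in WT and 9.14 in Tcf4 cKO. H3K4me1 and H3K27ac had peaks in all 4 libraries, with log2 differences of -0.20 ± 0.19 (adjusted p = 0.878 in limma) and -0.17 ± 0.16 (adjusted p = 0.915 in limma). As the strongest Tcf4 site, the bases within 75 bp of the Tcf4 summit of the first library are shown (chr6:144057117-144057267, plus strand, GRCm38). They hold no E-box and 1 ACAAAG core on the minus strand. The summit of the second library, at chr6:144056657, lies outside these bases, so they do not describe the whole Tcf4 region.
Sox5 Tcf4 summit: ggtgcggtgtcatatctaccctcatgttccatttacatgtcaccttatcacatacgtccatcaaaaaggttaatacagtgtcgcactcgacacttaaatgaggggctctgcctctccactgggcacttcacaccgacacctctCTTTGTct
Of the 15 Sox5 consensus regions 3 had Tcf4 over at least 30%, and their differences were -0.32 at the 5' end of the gene, -0.19 and 0.31. At a further Tcf4 region, chr6:144667489-144670067, H3K27ac and H3K27me3 both had peaks in all 4 libraries and ATAC in none. H3K27me3 there was 3.63 and 3.25 in WT and 4.10 and 4.10 in Tcf4 cKO (log2 difference 0.25 ± 0.06, adjusted p = 0.183 in limma).

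**Figure D3:**
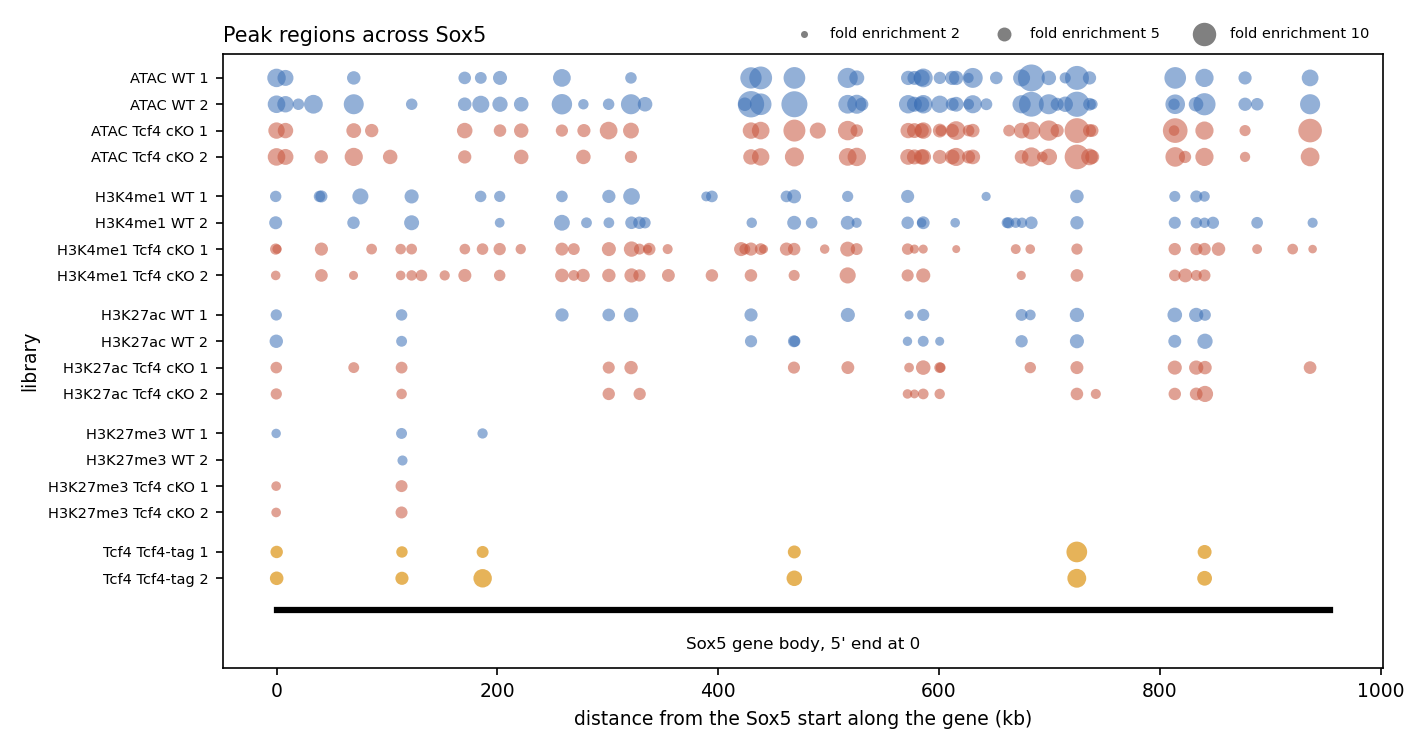
Peak regions across Sox5 by distance in kb from the 5' end of the gene (horizontal axis) in each library (rows), where the area of a circle grows with the MACS2 fold enrichment. WT is blue, Tcf4 cKO red and reproducible Tcf4 regions amber. At 429.7 kb, H3K27ac has circles in both WT libraries alone and H3K4me1 has circles of similar size in both Tcf4 cKO libraries.

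Sox13, the remaining SoxD gene, had no region with a difference of 0.5 or more. Its promoter, chr1:133422536-133424501, had means of 8.29 and 8.19 and ATAC peaks of 5.78 and 7 in WT and 6.29 and 7.67 in Tcf4 cKO (log2 difference 0.21 ± 0.18, adjusted p = 0.805 in limma). Its 2 upstream intergenic regions had positive differences of 0.22 and 0.27, and Tcf4 covered 67.3% of the farther one, chr1:133492126-133493732. The nearer one, chr1:133434088-133435062, lies outside the gene window. Its H3K27ac peaks were 5.04 and 4.5 in WT, with none in Tcf4 cKO. H3K27me3 had a peak there in Tcf4 cKO replicate 1 alone, at 3.54. Within the gene, H3K4me1 was confined to WT at chr1:133385716-133386184 (3.51 and 3.55) and to Tcf4 cKO at chr1:133422448-133423107 (2.92 and 2.64). An ATAC peak was confined to Tcf4 cKO at chr1:133418068-133418456 (2.55 and 3.47). H3K27ac met the consensus region at the start in 1 library, Tcf4 cKO replicate 1, at 3.33. That peak and the H3K4me1 peaks of Tcf4 cKO overlapped this consensus region but lay outside 1 kb of the protein-coding starts.

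**Figure D4:**
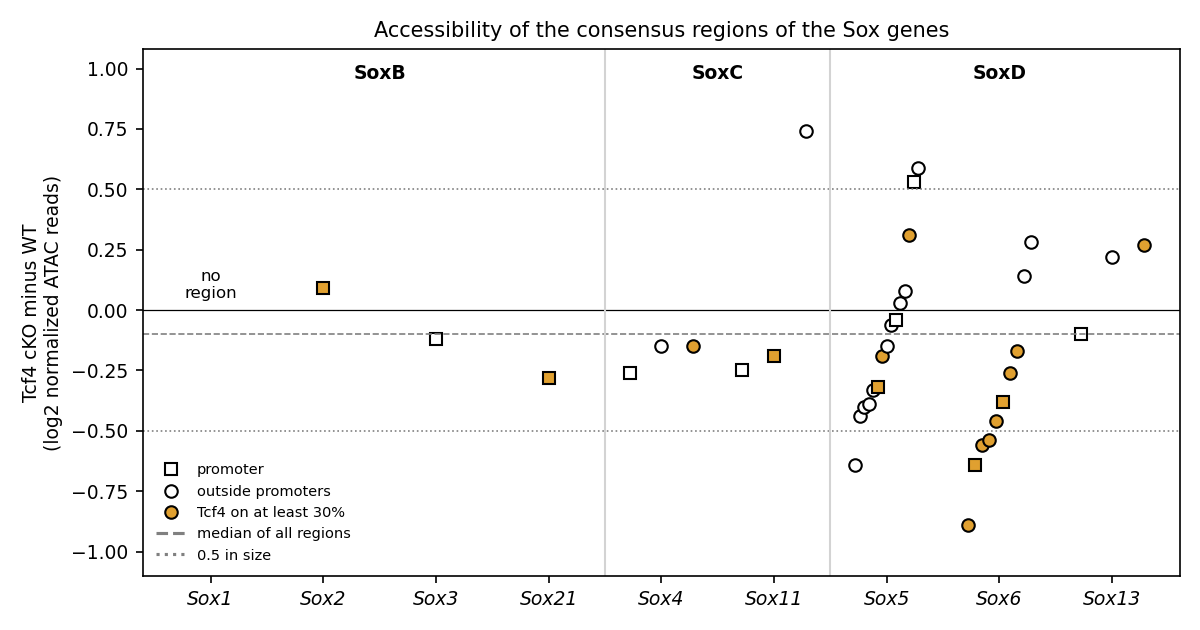
Difference of the authors' mean log2 normalized ATAC reads, Tcf4 cKO minus WT, at the 37 consensus regions (points) of the 9 genes. Squares are promoters in the authors' annotation and circles other regions. Amber marks regions with Tcf4 over at least 30%. Dotted lines stand at 0.5 in size and the dashed line at the median of all regions, -0.10. The 8 amber Sox6 points all lie below 0, and the 2 open ones, with a Tcf4 peak in the first library alone, above it.

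**Figure D5:**
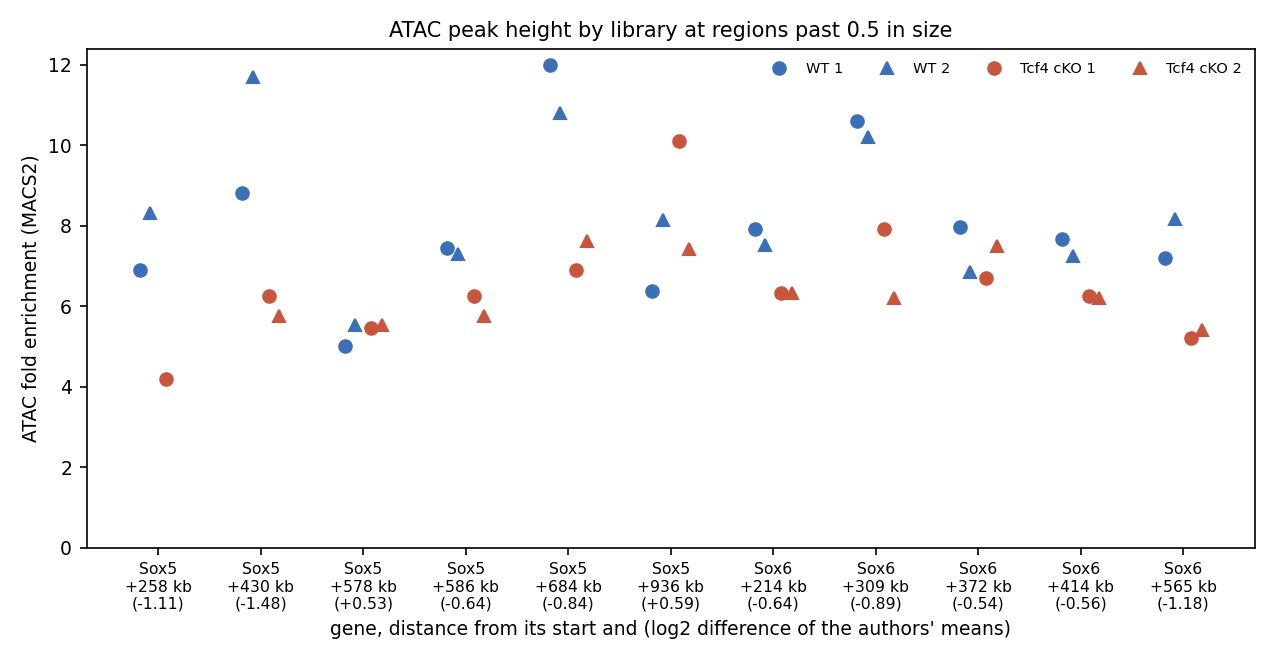
ATAC peak height (MACS2 fold enrichment, from 0) in each library at the 11 regions in the windows of Sox5 and Sox6 whose authors' means differ by at least 0.5 on the log2 scale, labelled with the gene, the distance from its 5' end and that difference. Blue is WT, red Tcf4 cKO, circles replicate 1 and triangles replicate 2; a missing symbol is a library with no peak.

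Peak heights from single libraries were compared with the means over all 37 regions. Of the 36 regions with an ATAC peak in all 4 libraries, 14 were lower in both Tcf4 cKO than in both WT libraries and 1 was higher, against 33.5% and 11.7% of all such regions. This split depended on scale, since the median peak height at consensus regions was 7.56 and 8.28 in WT and 7.5 and 7.42 in Tcf4 cKO. With each library divided by its median, 8 were lower and 6 higher, against 20.5% and 21.1% of all regions. For Sox6 alone the counts were 5 lower and 0 higher as deposited and 4 lower and 1 higher after division, and for Sox5 7 and 1 became 3 and 3. The 4 Sox6 regions still lower after division all carried Tcf4.

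Across the windows, no region near the 9 genes passed the test between genotypes, which used limma on log2 fold enrichment with libraries centred on their medians and a threshold of 0.05 after Benjamini-Hochberg adjustment. In ATAC 0 of 57 member regions passed, against 0.175% of all 40622 regions. At an unadjusted p under 0.05 there were 8, against 4529 of all regions (11.1%). Of the 8, 6 were lower, and directions were not counted over all regions. In H3K4me1 0 of 18 passed, against 0.00383% of 26103, with 3 at an unadjusted p under 0.05, against 1878 of all regions (7.19%). In H3K27ac 0 of 16 and in H3K27me3 0 of 6 passed, and in both assays 0% of all regions did (13799 and 7802). At an unadjusted p under 0.05 there were 0 and 2 member regions, against 909 (6.59%) and 1270 (16.3%) of all regions. With 2 libraries of each genotype an exact permutation test of a single value cannot go below p = 0.33, so peak coverage and presence are described without a test.

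Presence of ATAC peaks in one genotype alone was near the background. Of 115 merged ATAC regions near the 9 genes, 6 were confined to WT and 3 to Tcf4 cKO, against 4.83% and 3.49% of all regions. For the Sox5 window these comprised chr6:144067461-144067883 (3.72 and 5.73) and chr6:144596816-144597195 (4.02 and 6.54), both confined to WT. Of 122 H3K4me1 regions 2 were confined to WT and 10 to Tcf4 cKO, against 2.64% and 7.51%. Of the 10, Sox5 and Sox6 held 4 each and Sox21 and Sox13 1 each, with peaks between 2.47 and 4.66.

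H3K4me1 coverage was larger in both Tcf4 cKO libraries at Sox4, Sox5 and Sox6. For Sox5 it was 9899 and 15596 bp in WT and 23689 and 18169 bp in Tcf4 cKO, and for Sox6 6220 and 8567 bp in WT and 11822 and 8604 bp in Tcf4 cKO. The same held for 31.7% of all genes and for 67.9% of the 237 genes with a window of at least 500 kb, and the number of H3K4me1 peaks per library moved with it. No member lay below, against 3.62% of genes. For H3K27me3, Sox5 with 3092 and 2175 bp in WT and 3487 and 3185 bp in Tcf4 cKO, and Sox3 with 0 and 19 bp against 1040 and 1052 bp, lay above WT, against 9.16% of genes, and no member below, against 7.04%. Among genes with a window of at least 500 kb, as that of Sox5, 29.5% lay above and 10.1% below.

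Of the 20 reproducible Tcf4 regions in the 9 windows, 9 lay in Sox6, 6 in Sox5, 2 in Sox21 and 1 each in Sox2, Sox4 and Sox11, while Sox1, Sox3 and Sox13 had 0. A window held at least 1 for 48.5% of all protein-coding genes, and for 85.7% of the genes with windows of at least 500 kb, where the median number was 2. An ATAC peak was present in both WT libraries at 18 of the 20, against 92.3% of all 14089 Tcf4 regions, and H3K27ac at 11, against 74.2%. H3K27me3 was present in both WT libraries at 3, against 14.6%. Within 75 bp of the Tcf4 summits, CANNTG was found at 28 of 44 member summits in the first library and 16 of 26 in the second, against 49.2% and 48.1% of all summits. Its form CAGCTG was found at 6 of 44 and 6 of 26, against 14.2% and 15.4%. ACAAAG was found at 8 of 44 and 3 of 26 (9.85% and 8.96% of all summits) and ACAATG at 4 of 44 and 2 of 26 (5.91% and 5.22%). At Sox6 summits CANNTG was found at 13 of 15 and 7 of 10.

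Footprint scores of the SOX motifs, which combine the depletion of ATAC cuts over the sites of a motif with the accessibility around them, hardly differed between genotypes. The deposited table holds a single mean score per motif and genotype, from merged alignments, so no test was possible. Of 1205 motifs, 18 are named after a member, alone or with a POU factor. Their scores in WT ran from 0.170 to 0.259, beside a median of 0.245 over all motifs. The log2 ratio of Tcf4 cKO over WT ran from -0.025 for one SOX2 matrix (0.217 in WT and 0.214 in Tcf4 cKO) to 0.020 for the composite POU2F1::SOX2 motif (0.170 and 0.173), with a median of -0.004, beside -0.003 for all motifs. The middle 90% of all motifs ran from -0.081 to 0.036, so that all 18 lay inside it. The score was lower in Tcf4 cKO for 12 of the 18, against 53.4% of all motifs, and the number of sites called bound was lower for 8, against 582 of all 1205. Of the 12 other SOX motifs, 11 had a lower score in Tcf4 cKO, with log2 ratios from -0.026 to 0.004. For the Sox6 motif the scores were 0.230 and 0.231, with 2777 and 2816 of 32703 sites called bound, and for the 2 Sox5 matrices the log2 ratios were -0.014 and -0.001. Motifs of this family resemble each other, so a score does not single out a protein.

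Other genes of the pathway were counted by the same rule. The 10 other Sox genes had 11 consensus regions, of which 3 were lower and 1 higher by at least 0.5, with a median of -0.21. They were Sox30 (-0.62) and Sox9 (-0.51) at their promoters, an intergenic region of Sox14 (-0.90) and a region 8.1 kb from the start of Sox8 (1.22). The 5 POU partners had 8 regions, of which 1, near Pou3f1, was lower (-1.38) and 0 higher. Over all consensus regions 12.6% were lower and 8.38% higher by at least 0.5, with a median of -0.1. The 2 genes most like each member in the share of the 10 kb around the start covered by peaks, over 18 libraries, were Kdf1 and Plekhg6 for Sox1, Relb and Timeless for Sox2, Trnp1 and Pank4 for Sox3, and Pde3a and Bmper for Sox21. For Sox4 they were Cfl1 and Mus81, and for Sox11 Acap3 and Pusl1. For the SoxD genes they were Rab6b and Rims1 for Sox5, 1110004F10Rik and Gpr108 for Sox6, and Hcn2 and Pip5kl1 for Sox13. Distances of these nearest genes ran from 7.15 for Sox2 and Relb to 14.9 for Sox3 and Pank4, in percentage points, beside median distances to all genes of 24.8 for Sox2 and 35.6 for Sox3.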

How the data were processed

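ATAC-seq and Cut&Tag were run on sorted Nkx2.1-lineage cells, 50000 per library for ATAC-seq and histone marks and 200000 nuclei per library for Tcf4. Per the labels, the authors used Trim Galore, Bowtie2 (mm10), SAMtools and MACS2 and called peaks in each library separately, broad for H3K27me3. The deposited peak lists give the fold enrichment over local background and the -log10 q-value. The authors' consensus ATAC table holds mean log2 normalized reads per genotype (DiffBind with DESeq2 scaling), and the deposited footprint table a mean TOBIAS score and the bound sites per motif from merged alignments. Fold changes, p-values and FDRs of the authors' own comparisons in both tables were not used.

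Peaks of an assay that overlapped by 1 bp were merged across its 4 libraries, keeping the highest fold enrichment of each. For the broad H3K27me3 peaks the mean fold enrichment weighted by peak length was kept instead. Regions with a peak in all 4 were tested with limma 3.58.1 (R 4.3.3) on log2 fold enrichment centred per library, with Benjamini-Hochberg adjustment, and the procedure was tested on simulated data. Overlapping Tcf4 peaks of the 2 libraries were merged, and merged regions with a peak in each library were kept as reproducible. A region counted as carrying Tcf4 where these merged regions covered at least 30% of it. Most of that coverage can come from a single library. Genes came from GENCODE M21 and sequences from the RefSeq GRCm38.p6 genome (pysam 0.24.0). Depth per library is unknown from peak lists. P-values measure only the spread between these libraries. Named regions were those at a start site, with an authors' mean difference of at least 0.5, found in one genotype alone, past the limma threshold, or carrying the highest Tcf4 peak of a gene, and the 2 nearest genes by peak coverage were named. Other regions shown beside them were chosen after their values were seen. Members and lists were chosen with earlier results of these data known. Groups followed the genotype labels, and alternatives were other windows, thresholds, normalizations, a replicate block and leaving out each library. Single-cell RNA-seq was not analysed here.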

Additional observations from a re-analysis of the deposited data

How the results depend on the processing

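With 2 libraries of each genotype, 126 of 235 alternative values stayed within 1.5 times the reported value and 109 did not, most of these being small counts, and the cause was not tested. Peak lists hold no read depth, and how far a region without a peak lay under the caller's threshold cannot be told from them. No member region passed in any assay, without centring, with quantile normalization or with any library left out.

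Taking all merged regions, with a fold enrichment of 1 where a library had no peak, 6381 ATAC regions passed, 6 of them near the members, 2090 H3K27me3 regions with 1 near Sox3, and 0 H3K4me1 regions. The 7 member regions are among those found in one genotype alone, so this setting tests presence. In ATAC, 0 regions in all passed without centring and 0 with quantile normalization, and in H3K4me1 0 with quantile normalization and 0 at -log10 q of at least 5, where H3K27me3 had 5. With the replicate block, 845 ATAC regions passed, 1 of them near a member (the Sox5 element at chr6:144351892-144352736, adjusted p = 0.0395 in limma), 3 H3K27ac regions and 1 H3K27me3 region. The replicate numbers come from the titles and name no shared animal or day. Deviations of same-numbered libraries correlated at r from 0.0029 to 0.027 over regions. Whether these libraries shared an animal, day or batch was not tested.

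With gene bodies without flanks, members above WT in coverage numbered 0 for ATAC and 1 for H3K27me3, with 1 below for H3K27me3. With 20 kb on each side, 2 were above for ATAC, 6 above and 1 below for H3K4me1, and 1 above and 3 below for H3K27ac. At -log10 q of at least 5, 0 were above for ATAC, 0 above for H3K27me3 and 0 below for H3K27ac. Promoters within 500 bp held H3K4me1 in WT at 1 member and H3K27ac in Tcf4 cKO at 3. With a peak in at least 1 library, H3K4me1 promoters numbered 5 in WT and 6 in Tcf4 cKO, H3K27me3 promoters 5 in Tcf4 cKO and Tcf4 promoters 7. At -log10 q of at least 5, H3K4me1 and H3K27ac each stood at 1 promoter in either genotype and H3K27me3 at 0 in both. Regions found in one genotype alone numbered at that limit 0 in WT and 3 in Tcf4 cKO for H3K4me1, 1 in WT for H3K27ac and 0 in Tcf4 cKO for H3K27me3, and Tcf4 covered 10 consensus regions. With a difference of at least 1 in the authors' means 0 of the 37 regions were lower and 0 higher, and centred on the median of all regions 3 were lower. Scaling by the library median, chosen after seeing the data, left 8 regions lower and 6 higher in peak height. Within 150 bp of the summits, ACAAAG was found at 14 member summits of Tcf4-tag replicate 1 and 5 of replicate 2, ACAATG at 10 and 4, and either core at 22 and 9.

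Leaving out each library in turn left 2 to 7 members below and 1 to 4 above in ATAC coverage, 0 to 1 below and 3 to 6 above in H3K4me1, 2 to 4 below and 0 to 3 above in H3K27ac, and 1 to 2 below in H3K27me3. Regions of one genotype alone ran from 7 to 21 in WT and 5 to 12 in Tcf4 cKO for ATAC, 2 to 19 and 12 to 38 for H3K4me1, 3 to 9 and 2 to 8 for H3K27ac, and 0 to 1 and 1 to 2 for H3K27me3. Regions passing in all ran from 0 to 486 for ATAC, 0 to 7 for H3K4me1 and 0 to 5 for H3K27ac. Tcf4 covered 12 to 25 consensus regions. In peak height, a comparison added after seeing the data, 17 to 22 regions were lower and 3 to 10 higher. A lone library in a fit was assumed to vary like the other genotype.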
